A study of Mus musculus with 9 samples.

Results

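Fc receptors bind the constant part of antibodies, and the genes described here are the 4 mouse Fc gamma receptors that bind IgG (Fcgr1, Fcgr2b, Fcgr3 and Fcgr4), the signalling chain Fcer1g, the neonatal Fc receptor Fcgrt and the kinase Syk. These 7 genes were chosen by name for their role, with earlier results of these data known, from 16462 genes tested. On the array each has 1 probe. For 6 genes the probe carried the gene's name, and the Syk probe, which the array design calls Sykb, was found through its transcript accession.

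RNA from 3 groups of macrophages of C57BL/6J mice was labelled with Cy3 and hybridised to 1-colour Agilent arrays, 3 per group. The groups were F4/80high tumour-associated macrophages (TAMs) of a fibrosarcoma, F4/80low TAMs of the same kind of tumour, and macrophages of the peritoneal exudate (PECs), which served as controls. F4/80 is a surface protein of mouse macrophages, and the labels give no other marker of the sort and no treatment. The labels do not say whether the replicates of a group came from separate animals, so the p-values measure the spread among these samples alone, and that spread may be technical.

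Activating Fc gamma receptors lack a signalling domain of their own and pair with the Fcer1g chain, whose tyrosines are phosphorylated by Src family kinases once antibody complexes cross-link the receptors. Syk then docks on these tyrosines and starts phagocytosis and cytokine production, whereas Fcgr2b carries an inhibitory motif that recruits the phosphatase Inpp5d and dampens the response. Fcgrt encodes the heavy chain of FcRn, an endosomal receptor that pairs with B2m and returns IgG from endosomes to the cell surface.

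The probes of Fcgr2b, Fcgr4, Fcgr3 and Fcer1g lay in that order on chromosome 1, 68.8, 24.4 and 176.0 kb apart, in the positions of the files (mouse build mm9). The Fcgr2b probe was at chr1:172890988-172891047 on the minus strand, the Fcgr4 probe at chr1:172959738-172959797 on the plus strand, the Fcgr3 probe at chr1:172984129-172984188 on the minus strand and the Fcer1g probe at chr1:173159794-173159853 on the minus strand. The Fcgr1 probe was at chr3:96086839-96086898 (minus), the Fcgrt probe at chr7:52350556-52350615 (minus) and the Syk probe at chr13:52744088-52744147 (plus). Exon annotation of that build was not used here. Mouse Fcgr2b and Fcgr3 have nearly identical extracellular parts, so the probes of the 4 IgG receptors are shown, 5′ to 3′, for comparison.
Fcgr1 probe: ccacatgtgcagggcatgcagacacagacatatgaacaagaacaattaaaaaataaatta
Fcgr2b probe: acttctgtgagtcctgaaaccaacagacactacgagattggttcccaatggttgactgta
Fcgr3 probe: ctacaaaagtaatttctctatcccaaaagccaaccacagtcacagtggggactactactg
Fcgr4 probe: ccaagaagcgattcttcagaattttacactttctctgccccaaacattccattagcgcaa
The longest run shared by the Fcgr2b and Fcgr3 probes was 6 bases, within the 5 to 8 bases found over all pairs of the members' probes. This run compares the probes with each other, so it cannot show whether a probe also binds the transcript of the other gene. Whether the Fcgr3 probe also binds Fcgr2b transcript was not tested.

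Promoter sequences came from RefSeq (build GRCm38), as windows of 300 bases from 250 before to 50 after a gene's start. All 7 genes matched, with 9 windows. GAGGAA, the core of the site of PU.1, the myeloid transcription factor, was searched on both strands. GAGGAA was found in 5 of the 9 windows and in 28.3% of all 32851. The windows with GAGGAA were those of Fcgr1 and Fcgr4, both windows of Fcgr3 and 1 of the 2 of Syk, with 1 site shared by both Fcgr3 windows, which are shifted by 9 bases, and with the match 55 bases before the start in Fcgr1 and 22 bases before it in Fcgr4. The Fcgr1 and Fcgr4 windows are printed because these genes had the largest log2 fold changes among the members, with the motif match, read on the opposite strand, in capitals. They lie at chr3:96293920-96294219 (minus) and chr1:171018676-171018975 (plus).
Fcgr1 promoter: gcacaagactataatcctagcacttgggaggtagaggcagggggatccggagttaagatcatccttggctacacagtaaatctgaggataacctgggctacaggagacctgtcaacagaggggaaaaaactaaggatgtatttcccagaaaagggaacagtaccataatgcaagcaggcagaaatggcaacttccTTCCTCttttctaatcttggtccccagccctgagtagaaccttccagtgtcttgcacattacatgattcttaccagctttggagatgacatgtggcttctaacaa
Fcgr4 promoter: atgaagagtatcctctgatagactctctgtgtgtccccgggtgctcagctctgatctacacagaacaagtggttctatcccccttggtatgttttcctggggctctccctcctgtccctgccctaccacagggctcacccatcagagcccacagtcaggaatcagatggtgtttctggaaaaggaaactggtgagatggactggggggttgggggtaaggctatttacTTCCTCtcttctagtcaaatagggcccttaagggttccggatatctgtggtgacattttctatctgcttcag
A match describes the letters of the window, and binding was not measured.

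All 7 probes were well above background on all 9 arrays, so the filter on dim probes removed none of them. Of the 59305 non-control spots on each array, 36.1% to 38.3% were well above background and none was saturated. Levels are log2 intensities relative to the 75th percentile of each array and are compared only within a probe, since probes differ in brightness. Slide 1 held all 6 TAM arrays and PEC replicate 1, and slide 2 held PEC replicates 2 and 3. Macrophage markers were above background on all 3 arrays for 8 of 8 genes in F4/80high TAMs, 7 of 8 in F4/80low TAMs and 8 of 8 in PECs, with Mertk, a receptor for dying cells, on no F4/80low array. Adgre1, which encodes F4/80, was at 5.94 ± 0.25 in F4/80high TAMs, 2.89 ± 0.50 in F4/80low TAMs and 5.89 ± 0.25 in PECs (SD, n = 3 each).

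Fcgr4 and Fcgr1 were higher in F4/80high TAMs than in PECs, while Fcgr3 was lower. In F4/80low TAMs, Fcgr4 and Fcgrt were higher and Fcgr3 and Fcer1g were lower than in PECs. Fcgr1, Fcgr2b, Fcgr4 and Fcer1g were all higher in F4/80high than in F4/80low TAMs. Syk passed no test. The adjusted p-values are from limma with the Benjamini-Hochberg adjustment over all genes tested, called at 0.05.

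**Figure D1:**
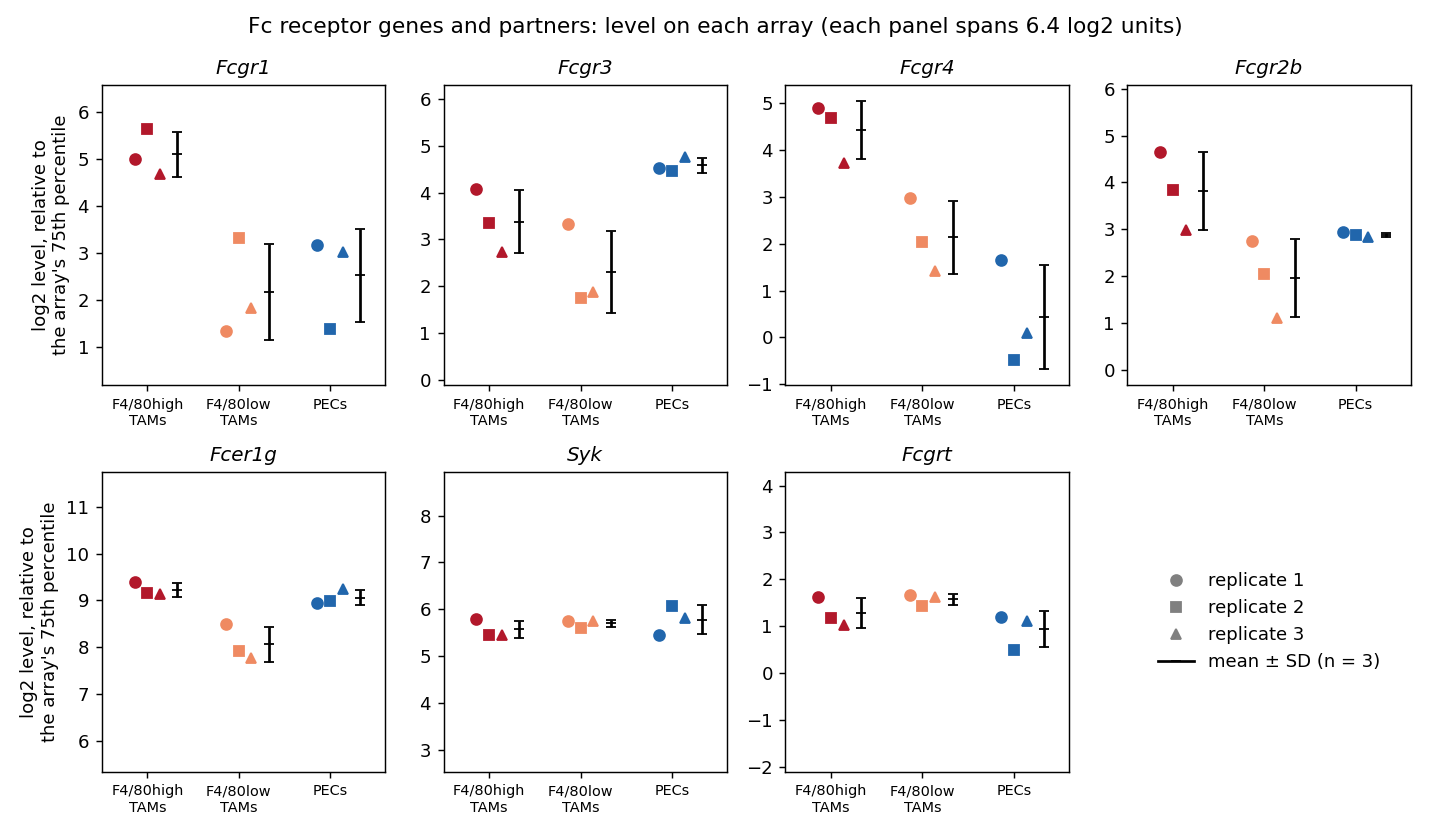
Level of each gene on each array (log2 intensity relative to the array's 75th percentile), with F4/80high TAMs left, F4/80low TAMs in the middle and PECs right. Points are arrays and bars are group means with SD (n = 3). Fcgr4 lies at 3.72 to 4.89 on the F4/80high arrays, and Syk lies between 5.46 and 6.06 on all 9.

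Fcgr4 encodes an activating receptor for IgG2a and IgG2b. Its level was 4.89, 4.68 and 3.72 on the F4/80high arrays (replicates 1, 2 and 3), 2.97, 2.04 and 1.41 on the F4/80low arrays and 1.66, −0.49 and 0.10 on the PEC arrays. Every F4/80high array was above every other array, and the lowest F4/80low array overlapped the highest PEC array. Fcgr4 was 16.1-fold higher in F4/80high TAMs than in PECs (log2 fold change 4.01, SE 0.58, adjusted p 0.000423). It was 3.28-fold higher in F4/80low TAMs than in PECs (1.72, SE 0.58, adjusted p 0.034). Fcgr4 was also 4.89-fold higher in F4/80high than in F4/80low TAMs (2.29, SE 0.58, adjusted p 0.0151). PEC replicate 1 was the brightest control, and without it the log2 fold change against PECs was 4.62 in the F4/80high subset and 2.33 in the F4/80low subset.

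Within slide 1, where that array is the sole control, the Fcgr4 log2 fold changes against PECs were 2.77 in F4/80high TAMs, still past the threshold, and 0.48 in the F4/80low subset (adjusted p 0.621). The F4/80low call was lost under 8 of 19 alternatives in all. Among them were normexp background correction (1.07), leaving out PEC replicate 2 (1.26) or 3 (1.55), and leaving out F4/80low replicate 1 (1.3) or 2 (1.76). The call between the subsets was lost without F4/80high replicate 1 (2.06) or 2 (2.17) and without F4/80low replicate 3 (1.93). In each of these the log2 fold change kept its sign.

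Fcgr1 encodes the high-affinity IgG receptor, which can bind monomeric antibody. Its level was 5.00, 5.63 and 4.69 on the F4/80high arrays, 1.34, 3.31 and 1.83 on the F4/80low arrays and 3.17, 1.38 and 3.01 on the PEC arrays. The F4/80high arrays were the 3 highest, and the F4/80low and PEC arrays overlapped. Fcgr1 was 5.99-fold higher in F4/80high TAMs than in PECs (log2 fold change 2.58, SE 0.59, adjusted p 0.0053). It was 7.7-fold higher there than in F4/80low TAMs (2.94, SE 0.59, adjusted p 0.00472). F4/80low TAMs did not pass against PECs (−0.36, 95% interval −1.69 to 0.97, adjusted p 0.628), a difference of 0.05 without F4/80low replicate 1. Within slide 1 the log2 fold change of F4/80high TAMs against PECs was 1.93 and did not pass (adjusted p 0.0898).

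Fcgr3 encodes the low-affinity activating receptor. Its level was 4.08, 3.34 and 2.73 on the F4/80high arrays, 3.32, 1.75 and 1.88 on the F4/80low arrays and 4.52, 4.45 and 4.76 on the PEC arrays. All PEC arrays were above all TAM arrays, and the TAM subsets overlapped. Against PECs, Fcgr3 was 2.28-fold lower in F4/80high TAMs (log2 fold change −1.19, SE 0.45, adjusted p 0.0476). The fall was 4.79-fold in F4/80low TAMs (−2.26, SE 0.45, adjusted p 0.00277). The F4/80high call was close to the threshold and was lost under 10 of 18 alternatives, with median centring (−1.04) and with 6 of the 9 arrays left out in turn among them, at log2 fold changes down to −0.87 without F4/80high replicate 3. Within slide 1 the log2 fold changes were −1.14 in the F4/80high subset (adjusted p 0.268) and −2.21 in the F4/80low subset (adjusted p 0.0627).

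Fcgr3 did not pass between the subsets (1.07, 95% interval 0.06 to 2.07, adjusted p 0.0983). It passed with the TAM arrays alone and the replicate number as a block (SE 0.23, adjusted p 0.0284), an alternative chosen after seeing the data, and without F4/80low replicate 1 (1.57). With the replicate block on all 9 arrays it did not pass (adjusted p 0.0548). Residuals of same-numbered TAM arrays correlated at 0.234, 0.171 and 0.134 across genes, and the labels do not say what a number marks.

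Fcgr2b encodes the inhibitory receptor. Its level was 4.65, 3.83 and 2.99 on the F4/80high arrays, 2.76, 2.04 and 1.11 on the F4/80low arrays and 2.94, 2.87 and 2.83 on the PEC arrays. All F4/80high arrays were above and all F4/80low arrays below the 3 PEC arrays, by as little as 0.05 and 0.07 at the nearest arrays. Fcgr2b was 3.61-fold higher in F4/80high than in F4/80low TAMs (log2 fold change 1.85, SE 0.47, adjusted p 0.0143). Neither subset passed against PECs, with 0.94 in the F4/80high subset (95% interval −0.11 to 1.99, adjusted p 0.117) and −0.91 in the F4/80low subset (95% interval −1.96 to 0.14, adjusted p 0.13). Each passed under 3 of 19 alternatives, such as without F4/80high replicate 3 (1.36) and without F4/80low replicate 1 (−1.3).

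The Fcgr2b probe is printed at 10 spots per array, which shows the error of a single reading. The SD of log2 intensity among the spots of an array was 0.06 to 0.12. Between arrays the SD was 0.83 in each TAM subset and 0.05 in PECs. The SD within an array is of single spots, whereas the SD between arrays is of levels averaged over the spots, which vary less. Within pairs of the same replicate number, F4/80high minus F4/80low TAMs gave 1.89, 1.78 and 1.88 (SD 0.06). The difference between the subsets was thus nearly equal in all 3 pairs, while the level itself varied between pairs.

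**Figure D2:**
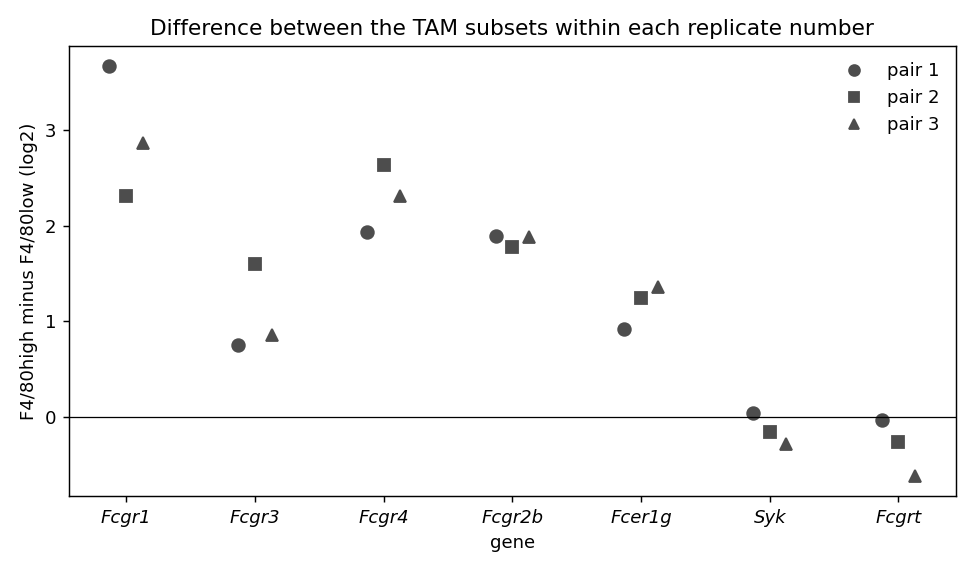
Difference between the TAM subsets (F4/80high minus F4/80low, log2) within each replicate number, for each gene. Each point is a pair of arrays of the same replicate number. The 3 Fcgr2b points lie close together, at 1.89, 1.78 and 1.88, and the Syk points lie between −0.28 and 0.04.

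Fcer1g encodes the chain through which Fcgr1, Fcgr3 and Fcgr4 signal. Its level was 9.40, 9.16 and 9.14 on the F4/80high arrays, 8.49, 7.92 and 7.78 on the F4/80low arrays and 8.95, 8.98 and 9.24 on the PEC arrays. The F4/80low arrays were the 3 lowest, and the F4/80high and PEC arrays overlapped. Fcer1g was 1.99-fold lower in F4/80low TAMs than in PECs (log2 fold change −0.99, SE 0.21, adjusted p 0.00422). It was 2.25-fold higher in F4/80high than in F4/80low TAMs (1.17, SE 0.21, adjusted p 0.00289). F4/80high TAMs did not pass against PECs (log2 fold change 0.18, 95% interval −0.3 to 0.66, adjusted p 0.506). Within slide 1 the F4/80low difference was −0.89 and did not pass (adjusted p 0.0875).

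Syk encodes the tyrosine kinase that docks on Fcer1g. Its level was 5.79, 5.46 and 5.46 on the F4/80high arrays, 5.75, 5.61 and 5.75 on the F4/80low arrays and 5.46, 6.06 and 5.81 on the PEC arrays. The groups overlapped in every comparison. The log2 fold change was −0.21 (95% interval −0.64 to 0.23, adjusted p 0.399) for F4/80high TAMs over PECs, −0.07 (−0.51 to 0.36, adjusted p 0.769) for F4/80low TAMs over PECs and −0.13 in F4/80high against F4/80low TAMs (−0.57 to 0.31, adjusted p 0.649). Each of these signs turned under at least 1 alternative.

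Fcgrt encodes the FcRn heavy chain. Its level was 1.63, 1.18 and 1.02 on the F4/80high arrays, 1.66, 1.44 and 1.62 on the F4/80low arrays and 1.20, 0.50 and 1.11 on the PEC arrays. The F4/80low arrays were above the PEC arrays, and the F4/80high arrays overlapped both. Fcgrt was 1.56-fold higher in F4/80low TAMs than in PECs (log2 fold change 0.64, SE 0.24, adjusted p 0.0463), a call close to the threshold that was lost under 11 of 19 alternatives. The log2 fold change was 0.34 in F4/80high TAMs against PECs (95% interval −0.19 to 0.87, adjusted p 0.252) and −0.3 in F4/80high against F4/80low TAMs (−0.83 to 0.23, adjusted p 0.373).

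**Figure D3:**
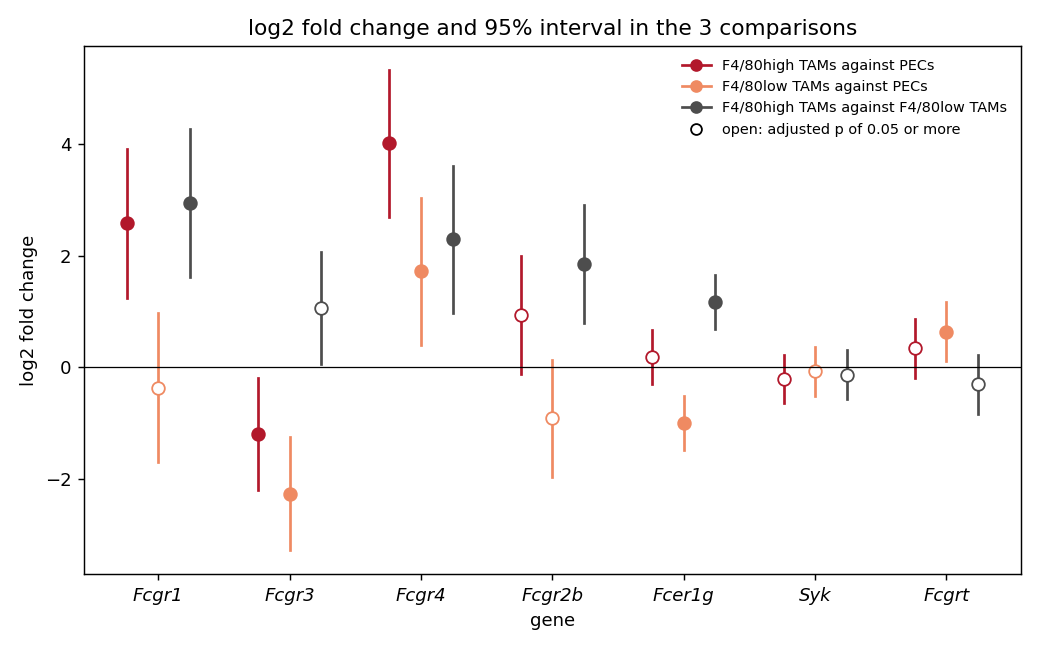
Log2 fold changes of the 7 genes in the 3 comparisons, with 95% intervals from the limma fit. The interval of Fcgr4 in F4/80high TAMs against PECs runs from 2.69 to 5.32, and the 3 intervals of Syk include 0.

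Counted over the 7 genes, 3 passed in F4/80high TAMs against PECs (2 higher, 1 lower), where 53.1% of all genes passed (24.9% higher and 28.2% lower). The F4/80low subset had 4 past the threshold against PECs (2 higher, 2 lower), beside 52.0% of all genes (22.5% higher and 29.4% lower). In F4/80high against F4/80low TAMs 4 passed, all higher, beside 32.7% of all genes (18.7% higher). The arrays of the groups did not overlap for 4 of the 7 genes in each comparison, beside 65.4%, 59.3% and 46.9% of all genes in the same order. The median log2 fold change of the members was 0.34, −0.36 and 1.17, beside 0.0, −0.1 and 0.08 over all genes. In both comparisons with PECs the members' counts lie near the share of all genes that passed. These comparisons share the PEC arrays, and tumour and tissue of origin cannot be told apart for any of them. For the PEC arrays of slide 2, slide cannot be told apart from these either. Of the calls in F4/80low TAMs against PECs over all genes, 43.4% were higher, and 60.7% with median centring.

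The balance of activating and inhibitory receptors was described by the change of each activating receptor from the PEC mean minus that of Fcgr2b on the same array, on the log2 scale. For Fcgr4 it was 2.7, 3.31 and 3.19 on the F4/80high arrays and 2.66, 2.45 and 2.76 on the F4/80low arrays, against 1.18, −0.9 and −0.27 on the PEC arrays. Relative to Fcgr2b, Fcgr4 was thus above all PEC arrays on all 6 TAM arrays. The mean relative change of Fcgr4 was 3.06 in the F4/80high subset and 2.62 in the F4/80low subset, and within slide 1 it was 1.89 and 1.45 in the same order. For Fcgr3 it was −2.27, −2.18 and −1.96 on the F4/80high arrays and −1.13, −1.99 and −0.93 on the F4/80low arrays, against −0.11, −0.12 and 0.23 on the PEC arrays. Fcgr3 lay below the PEC arrays on all 6 TAM arrays, and binding of its probe to Fcgr2b transcript was not tested. For Fcgr1 it was 0.71 to 2.16 on the F4/80high arrays, −1.07 to 1.63 on the F4/80low arrays and −1.13 to 0.6 on the PEC arrays, so that the F4/80low arrays overlapped both other groups.

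**Figure D4:**
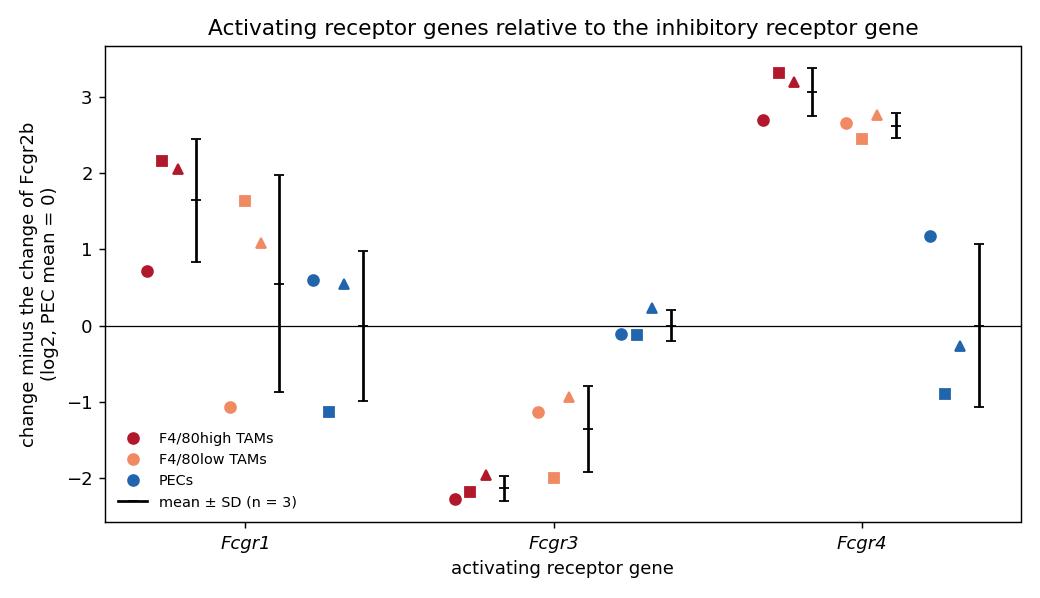
Change of Fcgr1, Fcgr3 and Fcgr4 from the PEC mean minus the change of Fcgr2b on the same array (log2), with F4/80high TAMs left, F4/80low TAMs in the middle and PECs right. All TAM arrays lie above the PEC arrays for Fcgr4 and below them for Fcgr3.

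Markers of other cells differed between the groups, and in bulk samples fewer cells of a type and less RNA per cell cannot be told apart. Of 8 neutrophil markers measured, 4 exceeded background throughout the F4/80high arrays, 8 throughout the F4/80low arrays and 3 throughout the PEC arrays. Their summed linear level was 220 to 325 in F4/80high TAMs, 1840 to 6540 in F4/80low TAMs and 119 to 156 in PECs, in multiples of the 75th percentile. The F4/80low subset thus carried the highest neutrophil marker level, and replicate 1 the highest in it. The brightest neutrophil marker was Csf3r in F4/80high TAMs (mean log2 level 7.8) and PECs (6.99), and S100a9 in F4/80low TAMs (10.71). Of 6 NK cell markers, 1, 3 and 1 were above background throughout F4/80high TAMs, F4/80low TAMs and PECs, with sums of 1.58 to 1.68, 9.64 to 19.7 and 1.08 to 1.5. Monocyte markers summed to 2.69 to 4.08 in F4/80high TAMs, 34.6 to 114 in F4/80low TAMs and 0.624 to 1.37 in PECs. The macrophage sum was 840 to 1280 in F4/80high TAMs, 570 to 850 in F4/80low TAMs and 959 to 1160 in PECs. Dendritic cell markers summed to 35.4 to 43.5 in F4/80high TAMs, 33.4 to 79.9 in F4/80low TAMs and 0.473 to 0.852 in PECs. T cell markers summed to 11.9 to 14.8, 12.2 to 24.7 and 6.45 to 11.3 in the same order. A linear sum follows its brightest marker. This was Ccr7 for dendritic cells (mean log2 level 5.2, 5.43 and −1.8) and Cd4 for T cells (3.47, 2.85 and 2.56). Of 6 dendritic cell markers, 2, 2 and 0 were above background throughout F4/80high TAMs, F4/80low TAMs and PECs. Of 5 T cell markers, 2, 5 and 2 were. Of 6 markers of resident large peritoneal macrophages, 2 exceeded background throughout each TAM subset and 5 throughout PECs, with sums of 14.5 to 29.5 in F4/80high TAMs, 5.56 to 9.51 in F4/80low TAMs and 70.8 to 83.3 in PECs. Their summed level was thus lower in both TAM subsets than in PECs. Cd93 was the brightest of them, at mean log2 levels of 4.17 in F4/80high TAMs, 1.89 in F4/80low TAMs and 5.74 in PECs. Timd4 was above background on no array. Markers of mast cells, basophils and eosinophils summed to 1.64 to 2.89 in F4/80high TAMs, 4.43 to 13.3 in F4/80low TAMs and 5.85 to 8.98 in PECs. Siglecf was the brightest of these in PECs (2.61) and was above background on no F4/80high array. No B cell marker of 6 was above background throughout any group. The part of these cells in the Fc receptor differences was not tested.

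Across the 9 arrays, which share their groups, the members' levels were described by Pearson correlation. Fcgr2b and Fcer1g correlated at 0.86, Fcgr3 and Fcer1g at 0.78, Fcgr1 and Fcgr4 at 0.75, and Fcgr3 and Fcgr4 at −0.25. Of 16450 genes compared, those most like each member were Pias1 and Gm4887 for Fcgr1 (r 0.975 for both), Rnaset2a (0.971) and Lpcat2 (0.964) for Fcgr2b, and Metrn (0.989) and Gm2805 (0.988) for Fcgr3. For Fcer1g they were Gm6517 (0.98) and C5ar1 (0.978), the receptor of complement fragment C5a. For Syk they were Atf5 (0.932) and Gm7515 (0.913), and for Fcgrt Pclo (0.943) and a transcribed region without a gene name (0.936). Both transcripts most like Fcgr4 had no gene name (0.986 and 0.983).

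Other Fc receptors and Fc-binding proteins were measured for 6 of 14 genes listed, 4 of them above background on all 9 arrays. Of the 6 measured, 5 were higher and 0 lower in F4/80high TAMs against PECs, 4 and 0 in F4/80low TAMs against PECs, and 4 and 0 in F4/80high against F4/80low TAMs. Genes kept by the filter on dim probes through 1 bright group only bear on this count. Over all genes, 24.9% passed as higher and 28.2% as lower in F4/80high TAMs against PECs. The shares were 22.5% and 29.4% in F4/80low TAMs against PECs, and 18.7% and 14.0% in F4/80high against F4/80low TAMs. Fcrls, a scavenger-like member of the Fc receptor family, had a mean level of 4.71 in F4/80high TAMs, 0.35 in F4/80low TAMs and −2.3 in PECs, with 2 of 3 PEC arrays above background. Against PECs it was higher by 7.01 in the F4/80high subset (SE 0.52, adjusted p 7.55e-06) and by 2.64 in the F4/80low subset (SE 0.52, adjusted p 0.00263), and 4.36 between the subsets. The F4/80low call was lost within slide 1 (2.22). Trim21, the cytosolic Fc receptor that sends antibody-coated virus for degradation, rose by 3.75 in F4/80high TAMs against PECs and by 2.2 in F4/80high against F4/80low TAMs. Fcrlb was at least 3.97-fold higher in F4/80low TAMs than in PECs. B2m, the partner of Fcgrt, had log2 fold changes of 0.56 in F4/80high TAMs against PECs and 0.84 in F4/80high against F4/80low TAMs, both past the threshold, and of −0.28 in F4/80low TAMs against PECs, which did not pass. The F4/80high call against PECs was lost without PEC replicate 1 (0.44) or 2 (0.56) and without any 1 of the 3 F4/80high arrays (0.52 to 0.58). It was also lost within slide 1 (0.81), with normexp background correction (0.39), with quantile normalization (0.4) and with no filter on dim probes (0.56). "At least" marks a gene detected above background throughout one of the groups and nowhere in the other, with the dim group entered at the lowest level well above background on each array or at its own level where that was higher.

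Kinases, adaptors and enzymes of the activating signal numbered 27 of 29 listed, 21 above background on all arrays. In F4/80high TAMs against PECs 6 were higher and 8 lower (median −0.21), and in F4/80low TAMs against PECs 3 and 8 (median −0.41). In F4/80high against F4/80low TAMs 9 were higher and 1 lower (median 0.24). The same over all genes was 24.9% and 28.2% (median 0.0), 22.5% and 29.4% (median −0.1), and 18.7% and 14.0% (median 0.08). In F4/80high TAMs against PECs, Malt1, a paracaspase downstream of Card9, rose by 2.56 (SE 0.23) and Src was at least 3.18-fold higher, while the adaptor Lat2 fell by 1.96 (SE 0.20) and the adaptor Lat was at least 18.8-fold lower. In F4/80low TAMs against PECs, Src was at least 3.16-fold higher and Lyn, a kinase that phosphorylates the receptor chain, rose by 0.8 (SE 0.22). Blnk, an adaptor of Syk, fell by 2.46 there (SE 0.21) and Lat2 fell by 1.87. The Lyn call was lost within slide 1 (0.86) and with normexp background correction (0.37). Between the subsets, Malt1 (2.08) and the kinase Fyn (1.67) were higher and Lat was at least 14.2-fold lower in F4/80high than in F4/80low TAMs. The Fyn call was lost without F4/80high replicate 2 (1.45) or F4/80low replicate 1 (1.31), and with no filter on dim probes (1.67).

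Inhibitory phosphatases, adaptors and receptors numbered 21 of 25 listed, 19 above background throughout. The list was set by gene name, and an inhibitory role of its genes, such as Siglec1, was not tested. Against PECs 3 were higher and 8 lower in F4/80high TAMs (median 0.0), and 3 higher and 12 lower in F4/80low TAMs (median −0.79). Between the subsets 7 were higher and 4 lower in F4/80high TAMs (median 0.19). Among all genes the shares higher and lower were 24.9% and 28.2%, 22.5% and 29.4%, and 18.7% and 14.0% in the same order. Their medians were 0.0, −0.1 and 0.08. Sirpa, the receptor of the signal CD47 that blocks phagocytosis, fell by 3.7 (SE 0.35) and the adaptor Dok2 fell by 3.39 (SE 0.30) in F4/80high TAMs against PECs, while the sialic acid receptor Siglec1 rose by 2.56 (2.06 within slide 1, where the call was lost) and Cd72 by 2.14. In F4/80low TAMs against PECs, Dok2 fell by 3.53 and the collagen receptor Lair1 fell by 3.07, Dok3 rose by 1.34, and Pecam1 was at least 1.58-fold higher, a call lost within slide 1. Inpp5d, the phosphatase recruited by Fcgr2b, fell by 1.61 in F4/80high TAMs against PECs, fell by 0.73 in F4/80low TAMs against PECs and fell by 0.89 in F4/80high against F4/80low TAMs. The Inpp5d call in F4/80low TAMs was lost with median centring (−0.45), quantile normalization (−0.5) and within slide 1 (−0.98). It was also lost without PEC replicate 1 (−0.6) or 3 (−0.7) and without F4/80low replicate 3 (−0.55). The Inpp5d call between the subsets was lost without F4/80high replicate 2 (−0.77) or F4/80low replicate 2 (−0.73). The limma fit with the replicate block on the TAM arrays alone lost it too (adjusted p 0.0529). The related phosphatase Inppl1 was higher in F4/80high than in F4/80low TAMs (1.69), as was Siglec1 (3.87), while the ubiquitin ligase Cblb (−2.29) and Dok3 (−1.1) were lower. B2m and Inpp5d were named for their tie to the members after their values were seen.

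Actin and membrane effectors of Fc receptor phagocytosis numbered 28 of 29 listed, 26 above background throughout. Of the 28 tested, 7 were higher and 9 lower in F4/80high TAMs against PECs (median −0.27). The counts were 4 and 9 in F4/80low TAMs against PECs (median −0.35), and 4 and 5 in F4/80high against F4/80low TAMs (median 0.27). All genes gave 24.9% and 28.2% (median 0.0), 22.5% and 29.4% (median −0.1), and 18.7% and 14.0% (median 0.08). Marcksl1, a membrane and actin binding protein, was at least 539-fold higher in F4/80high TAMs than in PECs and at least 122-fold higher in F4/80low TAMs than in PECs. Its relative Marcks rose by 2.69 in F4/80high TAMs against PECs and by 2.34 against F4/80low TAMs. The myosin Myo1f fell by 3.5 in F4/80high TAMs against PECs and fell by 2.48 in F4/80low TAMs against PECs, and the cofilin kinase Limk1 fell by 2.02 in F4/80high TAMs. In F4/80low TAMs against PECs the actin protein Vasp rose by 1.73 and the Rac activator Dock2 fell by 2.41, or fell by 1.06 on its other probe. Between the subsets, the phospholipase Pla2g4a was higher (2.53) and Wipf1 (−1.59) and the GTPase Rac2 (−1.29) lower in F4/80high than in F4/80low TAMs. The Rac2 call was lost without F4/80high replicate 2 or 3 and without F4/80low replicate 1 or 2. It was also lost with no filter on dim probes and with only the groups compared (−1.29 in both).

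Other receptors that signal through Fcer1g, Tyrobp or Syk numbered 16 of 18 listed, 15 above background throughout. Against PECs 5 were higher and 7 lower in F4/80high TAMs (median −0.59), and 4 higher and 6 lower in F4/80low TAMs (median −0.12). Between the subsets 4 were higher and 6 lower in F4/80high TAMs (median −0.11). The shares of all genes higher and lower were 24.9% and 28.2%, 22.5% and 29.4%, and 18.7% and 14.0% in the same order. The medians over all genes were 0.0, −0.1 and 0.08. Clec4e, the Fcer1g-coupled receptor Mincle, rose by 4.7 (SE 0.46), while Cd300ld fell by 4.83 and Cd300lb fell by 2.67, in F4/80high TAMs against PECs. Trem3 was at least 2.96-fold higher in F4/80high TAMs than in PECs, a call lost with normexp correction (0.82) and in the deposited table (0.67). It was at least 20.1-fold higher in F4/80low TAMs than in PECs. In F4/80low TAMs against PECs, Oscar, an Fcer1g-coupled collagen receptor, rose by 5.23 (SE 0.17), Cd300ld fell by 5.05 and the beta-glucan receptor Clec7a fell by 4.02. Between the subsets Sirpb1a (2.43) and Clec7a (1.54) were higher and Oscar (−4.34) and Trem1 (−2.82), a receptor abundant on neutrophils and monocytes, were lower in F4/80high than in F4/80low TAMs. The neutrophil marker levels given above were highest in the F4/80low subset as well, and their part in these differences was not tested.

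**Figure D5:**
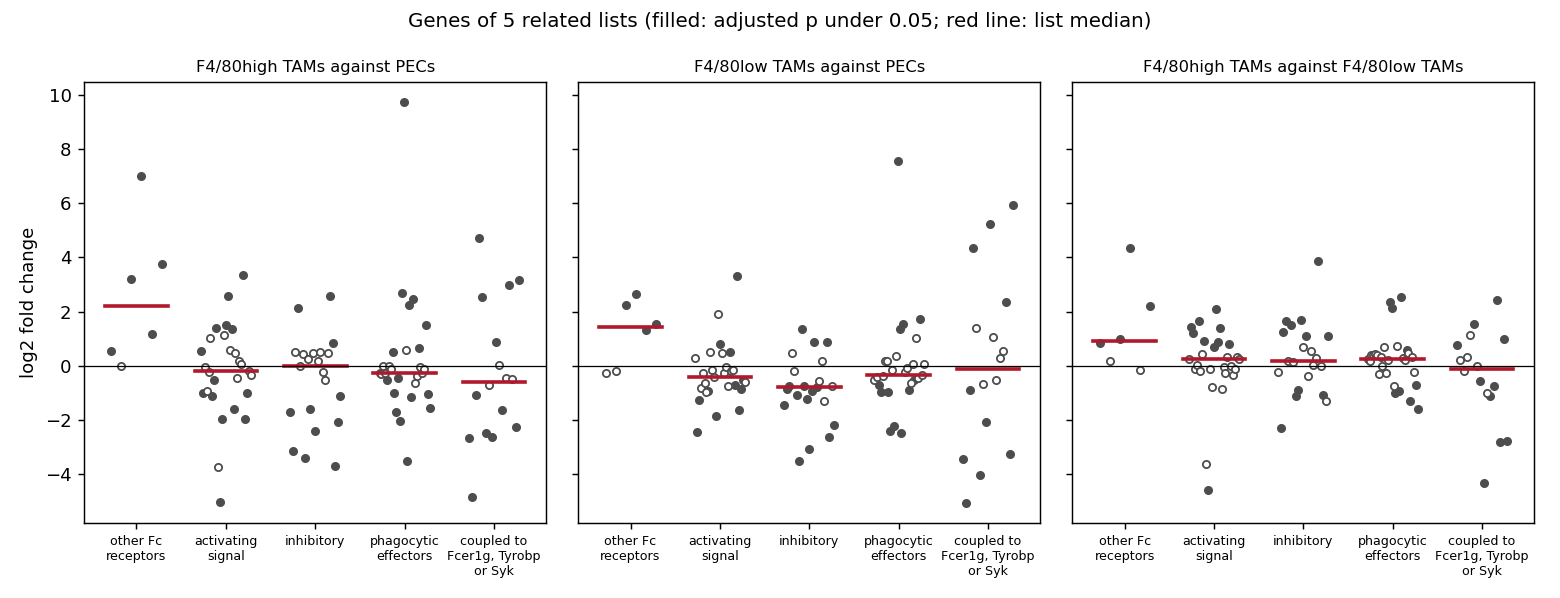
Log2 fold changes of the genes of 5 lists in the 3 comparisons. Each point is a gene, filled where limma's adjusted p was below 0.05, and red lines mark list medians, such as 2.19 for the 6 other Fc receptors in F4/80high TAMs against PECs.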

How the data were processed

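The labels name 3 groups of 3 arrays, read with Agilent Feature Extraction 10.5.1.1, per the file headers. The authors deposited a linear spot intensity, background-subtracted by that software per the file headers. Their deposited value table holds log2 values of 9703 probes, with column medians of 8.257 to 8.346. Its normalization, centring and probe filter are not given in the sources used here, and it served only as an alternative (it holds no Fcgr3 value).

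From the intensities, log2 values were taken and the 75th percentile of an array's non-control spots was subtracted, with outlier spots (103 to 307 per array) left out and spots of a probe averaged. A probe stayed where every array of some group had it well above background (21197 probes), and a gene was represented by its brightest probe (16462 genes, by RefSeq names where an accession matched). Groups were compared with limma 3.58.1 (lmFit, eBayes) in R 4.3.3, all 9 arrays in 1 fit, two-sided, with the Benjamini-Hochberg adjustment at 0.05 within each comparison. The number of arrays limits the precision, and the median SE of a log2 fold change was 0.236. The fit was tested on simulated data.

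Genes named are the 7 members, Adgre1, the 2 genes most correlated with each member, and in each list and comparison up to 2 rises and 2 falls, the largest among genes past the test whose arrays did not overlap. The members and lists were chosen with earlier results of these data known. Alternatives were normexp background correction, quantile normalization, median centring, no filter on dim probes, the mean of a gene's probes, slide as a block, slide 1 alone, a replicate block, only the groups compared, the deposited table and leaving out each array. Residuals of TAM arrays of the 2 subsets correlated at 0.134 to 0.234 for the same replicate number and at most 0.023 for different numbers. Residuals are taken from each group's own mean, so high values for the same number lower the others. Between PEC and TAM arrays of the same number the correlation was −0.096 to 0.091. The labels do not say what a number marks. A planned search for a further promoter motif is not reported here.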

Additional observations from a re-analysis of the deposited data

Results flagged for a closer look

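For 4 genes the difference from PECs was not the same in the TAM subsets, by the direct limma test between the subsets. The difference in F4/80high TAMs minus that in F4/80low TAMs was 2.94 for Fcgr1 (adjusted p 0.00472), 1.85 for Fcgr2b (adjusted p 0.0143), 2.29 for Fcgr4 (adjusted p 0.0151) and 1.17 for Fcer1g (adjusted p 0.00289), on the log2 scale. F4/80high was above F4/80low in 3 of 3 pairs of the same replicate number for each. Any pairing would give this, since the arrays of the subsets did not overlap for these genes. Fcgr3, which did not pass, was also higher in 3 of 3 pairs. Groups of 3 arrays were not searched for outlying samples.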

How the results depend on the processing

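Over the 7 genes and all alternatives, 333 of 389 log2 fold changes kept their sign and their side of the threshold. Both slide fits rest on PEC replicate 1 as the control, since slide 2 holds no TAM array. In F4/80high TAMs against PECs, 1 member passed with slide as a block and 1 with slide 1 alone (Fcgr4 in both), with 5652 and 4934 of all genes, against 3 and 8748. In F4/80low TAMs against PECs, 1 (Fcgr3) and 0 members and 4943 and 4199 genes passed, against 4 and 8553. Without the filter on dim probes 2 members and 14226 genes passed there, of 36492 tested. Leaving out 1 array at a time gave 2 to 3 members in F4/80high TAMs against PECs, 2 to 4 in F4/80low TAMs against PECs (2 without PEC replicate 2 or 3 or F4/80low replicate 2) and 3 to 5 between the subsets.

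The sign turned for Fcer1g in F4/80high TAMs against PECs (−0.19 with normexp correction and in the deposited table), Syk in F4/80high TAMs against PECs (0.11 in both slide fits), and Syk between the subsets (0.03 with normexp correction). For Syk in F4/80low TAMs against PECs it turned with quantile normalization (0.09), median centring (0.2), slide as a block (0.25) and slide 1 alone (0.25), with a range of −0.23 to 0.07 when arrays were left out. For Fcgr1 in F4/80low TAMs against PECs that range was −0.94 to 0.05. The causes were not tested. None of these passed in the fit reported.

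Between the subsets, 5223 genes passed with the replicate block on all 9 arrays, against 5385 without it. With the block on the TAM arrays alone, 4892 of 16462 genes passed. Without the block those arrays gave 4924 of 15504 genes, since the filter then used the TAM arrays only. The last 2 counts thus differ in the genes tested as well as in the block. Of the members' calls between the subsets, only that of Fcgr3 changed, and only in the TAM arrays alone. Median centring moved the median of all genes to 0.15, 0.18 and −0.04 in the 3 comparisons, against 0.0, −0.1 and 0.08. The share of calls that were higher became 56.0%, 60.7% and 47.8%, against 46.9%, 43.4% and 57.2%, and in F4/80low TAMs against PECs it was 66.4% without the filter. The change of Fcgr4 minus that of Fcgr2b was 1.89 to 3.65 in F4/80high TAMs and 1.45 to 3.21 in F4/80low TAMs over the alternatives. Of 58 called values of named list genes, 48 kept their call under every alternative run and 0 changed sign. Most of these genes were named for large changes on the same arrays, and B2m and Inpp5d after their values were seen. The count therefore cannot show how stable list genes are in general.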
